A study of Mus musculus with 6 samples.

Results

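Cornified envelope and S100 genes were followed in the back-skin epidermis of female mice, aged 9.5 weeks, on a C57BL6/CBA background. The members are all measured genes whose symbol begins with Lce, Sprr or S100a, together with a list of envelope precursors, transglutaminases, proteases, calmodulin-like proteins, barrier lipid genes and surface proteins of the outer epidermis. They come to 48 of the 11281 genes on the arrays and were read by 197 of 109751 probe sets that carry a single gene symbol. A further 33 symbols that meet the same rule, among them Flg, Flg2, Hrnr, Tchh, Krtdap, Sbsn, Kprp and Sptlc3, were not analysed here. The groups were 3 K14ΔNLef1 samples and 3 wild type samples, labelled as biological replicates, each hybridised to its own exon array. In K14ΔNLef1 mice the promoter of keratin 14, which is active in the basal layer, drives Lef1 without its N-terminal part, so that it lacks the part that binds β-catenin. No other allele or treatment is named for either genotype. The keratinocytes were unfractionated, with RNA taken after cell sorting, so each sample mixes basal and differentiated cells with any other cells of the epidermis. A gene value here is the mean log2 intensity of a gene's probe sets, and a change is the K14ΔNLef1 mean minus the wild type mean on that log2 scale. Changes were tested with limma over all genes, two-sided, with Benjamini-Hochberg adjustment. A gene passed at an adjusted p of 0.05 or less.

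The cornified envelope replaces the plasma membrane of a keratinocyte as the cell leaves the living layers of the epidermis. Precursors such as involucrin, loricrin, the small proline-rich (Sprr) and the late cornified envelope (Lce) proteins are cross-linked by transglutaminases beneath the membrane, while lipids released from lamellar granules are attached outside. Most precursor genes lie together in the epidermal differentiation complex on mouse chromosome 3, beside many S100 genes, which encode small calcium-binding proteins. Of the 48 members, 33 are on chromosome 3.

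Lef1 itself had gene values of 11.11, 11.13 and 11.24 in K14ΔNLef1 samples, against 5.81, 7.02 and 6.26 in wild type samples. The keratinocyte label was checked on basal keratins, and Krt14 was at 12.81, 13.04 and 13.06 in K14ΔNLef1 samples, against 12.94, 12.89 and 12.99 in wild type samples. Krt14 was the 1 of 9 basal keratinocyte markers with a higher mean in K14ΔNLef1 samples (0.03), and the basal keratins Krt5 and Krt15 had changes of -0.17 and -0.36. None of the 9 passed or had an unadjusted p under 0.05 (limma), and their median change was -0.319, against -0.054 over all genes. K14ΔNLef1 replicate 1 stood apart, with a median intensity of 154.2, against 190.0 to 203.2 on the other arrays. That array was the lowest of the 6 for 42.3% of all genes and for 27.1% of the members. The number of arrays limits the precision, and 18 of the 48 members lay under the 25th percentile of all gene values, in the dim range of the arrays.

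Calm4 and Calm5 encode calmodulin-like proteins of the skin and are neighbours on chromosome 13. Their promoter windows, from 250 bases before to 50 bases after the annotated start, are shown because Calm5 passed the test and Calm4 did not. All promoter sequences are from RefSeq, build GRCm38.p6. Set side by side without gaps at a shift of 44 bases, the windows shared 256 bases, of which 255 were identical (99.6%). The single difference is A130G, with the Calm4 base first and positions counted from 1 at the 5′ end of the Calm5 window. The Calm5 window is chr13:3853923-3854222 and the Calm4 window is chr13:3837507-3837806, both on the plus strand, and capitals mark the shared stretch.
Calm5: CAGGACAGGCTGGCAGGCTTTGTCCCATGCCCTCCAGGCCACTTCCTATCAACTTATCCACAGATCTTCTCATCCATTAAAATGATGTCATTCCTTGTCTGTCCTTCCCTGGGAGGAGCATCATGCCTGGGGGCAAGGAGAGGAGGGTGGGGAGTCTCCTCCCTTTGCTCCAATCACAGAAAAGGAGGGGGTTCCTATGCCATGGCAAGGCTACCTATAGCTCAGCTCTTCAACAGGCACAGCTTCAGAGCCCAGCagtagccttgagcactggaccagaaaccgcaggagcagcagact
Calm4: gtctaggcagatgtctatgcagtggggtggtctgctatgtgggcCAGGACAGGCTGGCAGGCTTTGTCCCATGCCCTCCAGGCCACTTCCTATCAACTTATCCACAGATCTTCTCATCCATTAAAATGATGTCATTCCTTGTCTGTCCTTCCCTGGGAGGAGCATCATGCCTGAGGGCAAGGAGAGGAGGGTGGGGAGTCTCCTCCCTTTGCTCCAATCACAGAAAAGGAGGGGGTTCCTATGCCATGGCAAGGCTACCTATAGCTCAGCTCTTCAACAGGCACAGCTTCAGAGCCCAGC

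The promoter windows were also searched for short motifs. The RefSeq table held 46 windows for 41 of the 48 members, and 32851 windows in all. TATAAA, the TATA box, stood on the sense strand with its first base 45 to 21 bases before the start in 37.0% of member windows, against 2.14% of all windows. The 17 member windows with TATAAA there belonged to Ivl, Lce1d, Lor, Rptn, S100a4, S100a8, Tgm3 and Sprr genes, and several Sprr genes are close copies. On either strand and anywhere in the window, TATAAA was in 41.3% of member windows, against 13.6% of all windows. TGANTCA, the motif of AP-1 factors, was in 26.1% of member windows on either strand, against 7.81% of all windows. The 12 member windows with that motif belonged to Ivl, Lor, Rptn and Sprr genes, several of which are close copies of each other. The LEF/TCF motif was searched as CTTTGAA, then with a different end as CTTTGAT, and with other last bases as CTTTGTA or, finally, as CTTTGTT. Any of these stood on either strand in 6 of the 46 member windows, against 16.9% of all windows. They were found at Asprv1, Cdsn, S100a3, Sprr2e, Tgm1 and Tgm3. A match describes the letters of the window only. The next windows are shown because their genes had the highest positive changes among the members, with TATAAA in capitals. It began 45 to 21 bases before the start in the Tgm3 and S100a8 windows, but not in the S100a9 window. Tgm3 is at chr2:130012090-130012389 on the plus strand, S100a8 at chr3:90668821-90669120 on the plus strand and S100a9 at chr3:90695672-90695971 on the minus strand.
Tgm3: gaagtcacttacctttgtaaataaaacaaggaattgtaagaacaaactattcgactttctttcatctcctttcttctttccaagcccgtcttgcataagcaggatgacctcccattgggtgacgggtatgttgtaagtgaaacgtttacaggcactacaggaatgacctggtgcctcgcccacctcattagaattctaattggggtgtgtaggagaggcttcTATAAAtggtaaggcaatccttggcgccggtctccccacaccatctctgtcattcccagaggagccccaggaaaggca
S100a8: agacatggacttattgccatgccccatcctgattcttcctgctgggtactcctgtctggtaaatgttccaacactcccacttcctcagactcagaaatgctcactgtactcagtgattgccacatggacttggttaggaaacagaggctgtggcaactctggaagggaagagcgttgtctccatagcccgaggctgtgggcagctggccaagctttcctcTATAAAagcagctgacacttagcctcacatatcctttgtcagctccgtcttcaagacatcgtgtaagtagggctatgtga
S100a9: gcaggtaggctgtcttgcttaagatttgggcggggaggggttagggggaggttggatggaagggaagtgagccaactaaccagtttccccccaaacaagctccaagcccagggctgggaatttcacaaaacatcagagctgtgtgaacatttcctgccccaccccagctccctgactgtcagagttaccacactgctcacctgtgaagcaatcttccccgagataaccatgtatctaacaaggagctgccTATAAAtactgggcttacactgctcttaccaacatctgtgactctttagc

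Between the genotypes, 1 of the 48 members fell, 0 rose and 47 did not pass (limma). The background over all genes was 1.16% called, with 0.833% lower and 0.328% higher. At an unadjusted p under 0.05 there were 9 members, against 11.8% of all genes. In direction, 26 members were higher and 22 lower, and the median change was 0.055 over the members and -0.054 over all genes. The genotypes did not overlap for 17 members (35.4%), of which 9 were higher and 8 lower, against 18.7% of all genes, 6.91% higher and 11.8% lower. A change of at least 2-fold, in either direction and whatever its p, was seen for 5 members, against 3.33% of all genes. The median size of the change, whatever its direction, was 0.346 over the members and 0.207 over all genes. Members were read by a median of 2 probe sets, against 8 over all genes, so a member's mean averages over fewer measurements. The part of probe set number in the size of the changes was not tested. The member that fell was Calm5. After every array was set to a common median, or after quantile normalization, Abca12 fell too and Tgm3 rose, while the median change of all genes was 0.054 and 0.056 under those scalings.

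**Figure D1:**
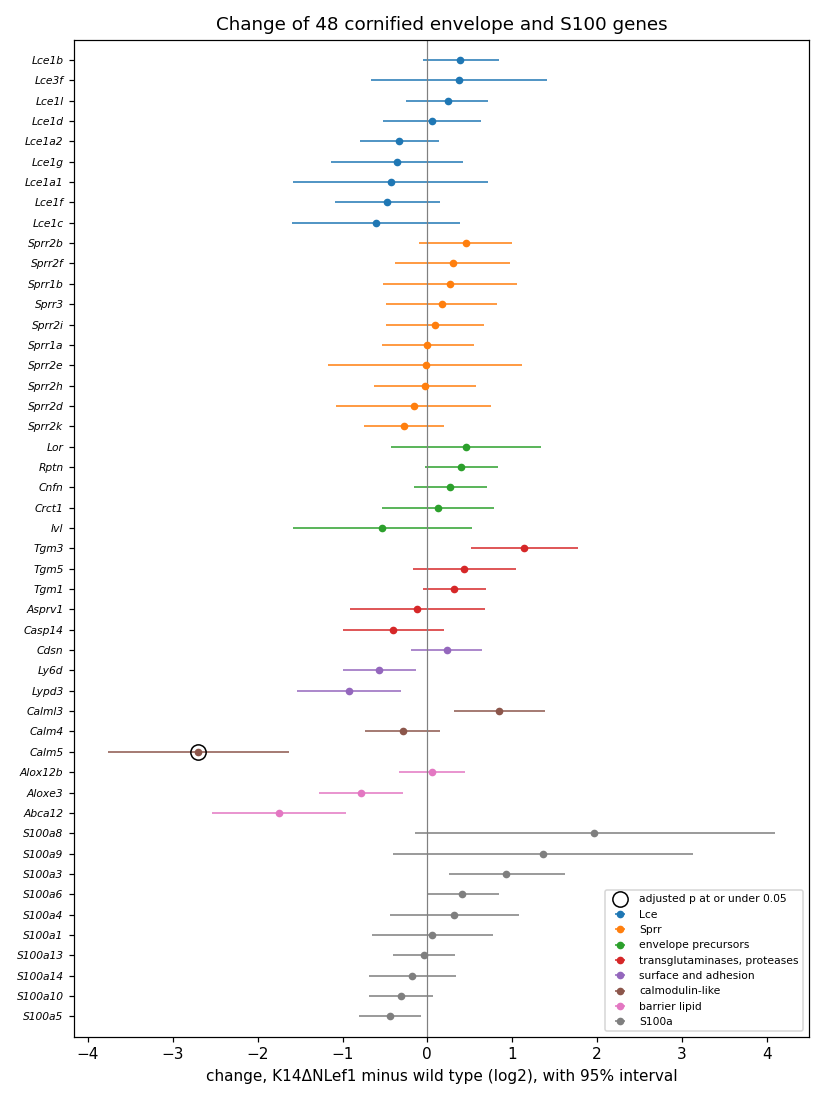
Change of each of the 48 members on the log2 scale, K14ΔNLef1 minus wild type, as points with 95% intervals from limma, ordered and coloured by role. Calm5, ringed, passed at -2.70, and the intervals of all Lce and Sprr genes span 0.

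Calm5 had the largest change of the 48 members. Its gene values were 7.44, 9.43 and 7.70 in K14ΔNLef1 samples, against 10.83, 10.92 and 10.91 in wild type samples. Every K14ΔNLef1 array lay below every wild type array, with replicate 2 well above the other K14ΔNLef1 arrays. Calm5 fell by 2.70 (SE 0.46), a 6.49-fold difference, with a 95% interval of -3.77 to -1.63 and a limma adjusted p of 0.0379. In a bulk sample such as these, fewer cells of a type and less RNA per cell cannot be told apart. Both probe sets of Calm5 were lower without overlap, with changes of -2.78 and -2.61, against 14.6% of all probe sets without overlap. Neither passed alone over all probe sets, where 0.19% were called (limma adjusted p of 0.174 and 0.112). The call was lost in 5 of the 6 fits that left out 1 array. The limma adjusted p was 0.0609 without K14ΔNLef1 replicate 1 and 0.103 without K14ΔNLef1 replicate 3. It was 0.145, 0.153 and 0.166 without wild type replicate 1, 2 and 3. Without K14ΔNLef1 replicate 2 the change was -3.32 with a limma adjusted p of 0.00191, and over the 6 fits the change ran from -3.32 to -2.32.

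Calm4, with its nearly identical promoter window, differed far less between the genotypes. Its values were 10.50, 10.95 and 11.00 in K14ΔNLef1 samples, against 11.09, 11.14 and 11.07 in wild type samples. The K14ΔNLef1 arrays were all lower, replicate 1 most and the other replicates by a narrow gap. The change was -0.29 (SE 0.19), with a 95% interval of -0.73 to 0.15 and a limma adjusted p of 0.628. Its 3 probe sets had changes from -0.55 to 0.01. The genes are close copies, so their separate values are uncertain, and cross-hybridisation between them was not tested.

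Calml3, the calmodulin-like 3 gene, is on chromosome 13 as well and went the other way. Its values were 9.87, 9.50 and 10.21 in K14ΔNLef1 samples, against 9.14, 8.75 and 9.14 in wild type samples. All K14ΔNLef1 arrays were above all wild type arrays. The change was 0.85 (SE 0.23), with a 95% interval of 0.32 to 1.39, and it did not pass (limma adjusted p of 0.177). The difference in change between the 3 calmodulin-like genes was not tested.

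**Figure D2:**
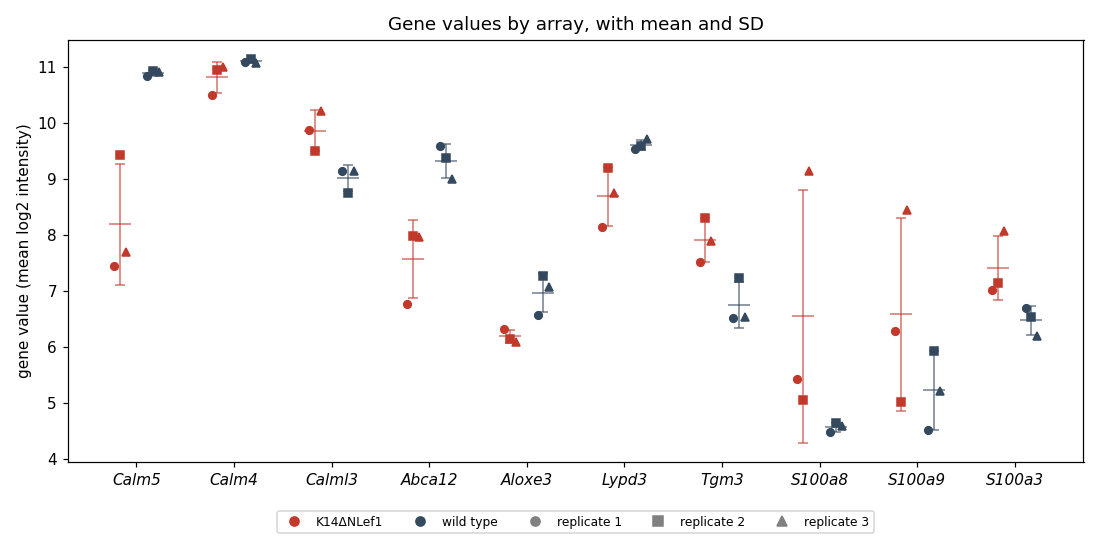
Gene values (mean log2 intensity) of 10 members on each array, K14ΔNLef1 in red and wild type in dark blue, with a symbol for each replicate number and bars for mean and SD over 3 arrays. Calm5 and Abca12 were lower on every K14ΔNLef1 array, and S100a8 and S100a9 were highest on K14ΔNLef1 replicate 3, at 9.14 and 8.44.

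Among the barrier lipid genes, Abca12 was lower on every K14ΔNLef1 array. It encodes a transporter that loads lipids into lamellar granules, and its loss in humans causes harlequin ichthyosis. The values were 6.77, 7.98 and 7.96 in K14ΔNLef1 samples, against 9.59, 9.38 and 8.99 in wild type samples. The genotypes did not overlap, and K14ΔNLef1 replicate 1 was the lowest array. The change was -1.75 (SE 0.34), a 3.36-fold difference with a 95% interval of -2.54 to -0.96, and the limma adjusted p of 0.0625 missed the threshold. All 20 probe sets of Abca12 were lower, with changes from -2.71 to -1.08, and 17 of them had no overlap, against 14.6% of all probe sets. Probe sets of 1 gene read the same RNA and are not replicates. Without K14ΔNLef1 replicate 1, Abca12 had a change of -1.35 and passed (limma adjusted p of 0.0261), in a fit that called 2.12% of all genes.

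Alox12b and Aloxe3 encode lipoxygenases that act in turn on the linoleate of skin ceramides. Aloxe3 had values of 6.33, 6.14 and 6.10 in K14ΔNLef1 samples, against 6.58, 7.27 and 7.07 in wild type samples. The genotypes did not overlap, with wild type replicate 1 closest to the K14ΔNLef1 arrays. The change of Aloxe3 was -0.78 (SE 0.22), with a 95% interval of -1.28 to -0.29 and a limma adjusted p of 0.186. Of its 13 probe sets 12 were lower, with changes from -2.79 to 0.07, and 3 had no overlap, against 14.6% of all probe sets. Unequal change among the probe sets of a gene was tested with limma's diffSplice, which called 0 of the 21 members with at least 3 probe sets, against 0.754% of all such genes. Aloxe3 had the smallest p among those members, 0.0497 before and 0.85 after adjustment. Alox12b had values of 6.08, 6.10 and 5.87 in K14ΔNLef1 samples, against 5.86, 6.05 and 5.98 in wild type samples. These overlapped, and the change of 0.05 had a 95% interval of -0.34 to 0.44 in a gene of the dim range.

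**Figure D3:**
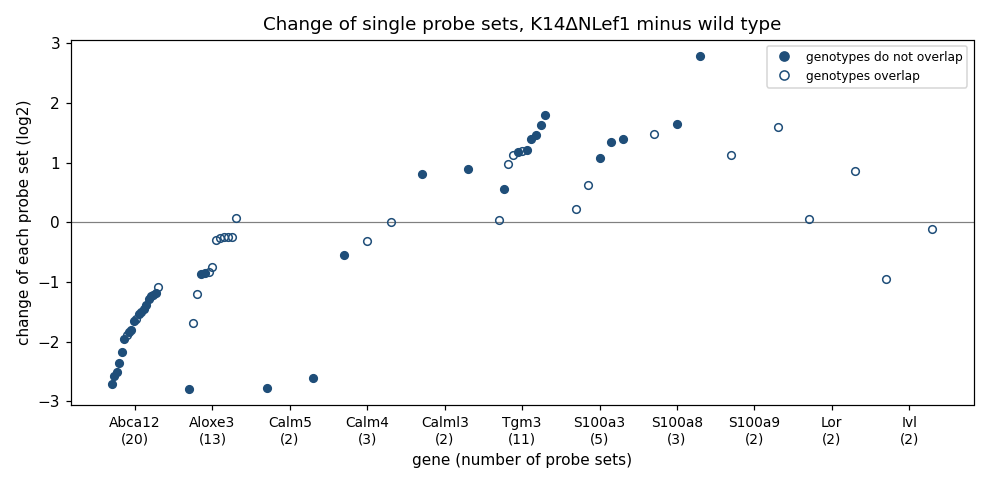
Change of each probe set of 11 members on the log2 scale, K14ΔNLef1 minus wild type, with the number of probe sets under each gene and filled points where the genotypes did not overlap. All 20 Abca12 probe sets lie below 0 and all 11 Tgm3 probe sets above 0, while Aloxe3 runs from -2.79 to 0.07.

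The 3 transglutaminases were higher on average in K14ΔNLef1 samples, and none passed (limma), with 1, Tgm3, at an unadjusted p under 0.05. Tgm3, an enzyme of the upper epidermis and the hair follicle, had values of 7.52, 8.31 and 7.89 in K14ΔNLef1 samples, against 6.52, 7.23 and 6.54 in wild type samples. The lowest K14ΔNLef1 array was above the highest wild type array. Its change was 1.14 (SE 0.28), a 2.21-fold difference with a 95% interval of 0.51 to 1.78 and a limma adjusted p of 0.129. All 11 probe sets were higher, with changes from 0.04 to 1.79, and 7 of them had no overlap, against 14.6% of all probe sets.

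Tgm1 encodes the membrane-bound transglutaminase whose loss in humans causes lamellar ichthyosis. It had values of 6.77, 6.78 and 6.88 in K14ΔNLef1 samples, against 6.56, 6.40 and 6.51 in wild type samples. The genotypes did not overlap, and 11 of its 16 probe sets were higher. The change of Tgm1 was 0.32, with a 95% interval of -0.05 to 0.69 and a limma adjusted p of 0.507. Tgm5, a transglutaminase of the upper layers, had values of 7.49, 8.35 and 8.11 in K14ΔNLef1 samples, against 7.85, 7.45 and 7.34 in wild type samples. K14ΔNLef1 replicate 1 lay within the wild type range, and the change was 0.43 (limma adjusted p of 0.59).

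Casp14, a caspase of cornifying cells, had values of 6.55, 6.59 and 7.40 in K14ΔNLef1 samples, against 7.46, 7.08 and 7.21 in wild type samples. K14ΔNLef1 replicate 3 lay within the wild type range, and the change was -0.40 (limma adjusted p of 0.616). Asprv1, a protease that cleaves profilaggrin, had values of 6.86, 8.12 and 8.14 in K14ΔNLef1 samples, against 7.72, 8.05 and 7.71 in wild type samples. The low array was K14ΔNLef1 replicate 1. The change of Asprv1 was -0.12 with all arrays and 0.31 without that array, and it passed in neither fit.

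None of the 5 envelope precursors passed, and 0 had an unadjusted p under 0.05 (limma). Lor encodes loricrin, the most abundant protein of the mature envelope, and had values of 6.82, 7.77 and 7.30 in K14ΔNLef1 samples, against 7.54, 6.90 and 6.08 in wild type samples. The genotypes overlapped, and the change of 0.45 had a 95% interval of -0.43 to 1.34 (limma adjusted p of 0.708). Single arrays moved it, since it was 0.07 without wild type replicate 3, 0.80 without wild type replicate 1, 0.22 without K14ΔNLef1 replicate 2 and 0.69 without K14ΔNLef1 replicate 1. The 2 probe sets of Lor also differed, with changes of 0.05 and 0.86. Ivl encodes involucrin, an early precursor, and had values of 4.62, 6.30 and 6.46 in K14ΔNLef1 samples, against 6.66, 6.05 and 6.26 in wild type samples. K14ΔNLef1 replicate 1 alone was low. The change of Ivl was -0.53, with a 95% interval of -1.58 to 0.53 (limma adjusted p of 0.716), and 0.06 without that array. Its 2 probe sets had changes of -0.95 and -0.11. Rptn, which encodes the S100 fused-type protein repetin, had values of 5.53, 5.20 and 5.28 in K14ΔNLef1 samples, against 4.96, 5.12 and 4.74 in wild type samples. Rptn was higher on every K14ΔNLef1 array, in the dim range, with a change of 0.40 (limma adjusted p of 0.475). Cnfn, or cornifelin, and Crct1 overlapped between the genotypes, with changes of 0.27 and 0.12. The intervals of Lor and Ivl leave room for sizeable differences, so these values do not show equal levels.

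Of the 9 Lce genes 4 were higher and 5 lower, and 0 passed or had an unadjusted p under 0.05 (limma). Their changes ran from -0.60 to 0.39, with a median of -0.329. Lce1b was the member of this family without overlap, at 8.73, 8.42 and 8.22 in K14ΔNLef1 samples, against 8.15, 8.10 and 7.93 in wild type samples. It was higher on every K14ΔNLef1 array and was the brightest Lce gene, with a change of 0.39 and a 95% interval of -0.05 to 0.84 (limma adjusted p of 0.501). Lce1f had values of 6.26, 6.82 and 7.29 in K14ΔNLef1 samples, against 7.41, 7.32 and 7.06 in wild type samples. K14ΔNLef1 replicate 3 lay within the wild type range, and the change was -0.47 (limma adjusted p of 0.571). Lce1c had values of 6.25, 4.52 and 5.75 in K14ΔNLef1 samples, against 5.62, 6.35 and 6.36 in wild type samples. Its low array was K14ΔNLef1 replicate 2, and the change was -0.60 (limma adjusted p of 0.653). It was -0.11 without that array, -0.98 without K14ΔNLef1 replicate 1, and -1.42 with array weights, where it passed (limma adjusted p of 0.0212). That fit gave the low array, K14ΔNLef1 replicate 2, a weight of 5.18, and called 598 genes higher and 699 lower over all genes. Lce1c was read by 1 probe set. In the dim range were 7 of the 9 Lce genes, and near-identical copies in the family make the values of single genes uncertain.

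Of the 10 Sprr genes 6 were higher and 4 lower, and 0 passed or had an unadjusted p under 0.05 (limma). Their changes ran from -0.27 to 0.45, with a median of 0.043. Sprr2b was the member of this family without overlap, at 6.66, 6.32 and 7.21 in K14ΔNLef1 samples, against 6.30, 6.28 and 6.26 in wild type samples. The gap between the genotypes was narrow, and the change was 0.45 (limma adjusted p of 0.535). Sprr1a, the brightest of the family and known to be induced in stressed epidermis, had values of 9.43, 9.61 and 9.70 in K14ΔNLef1 samples, against 9.80, 9.10 and 9.84 in wild type samples. The genotypes overlapped fully, and the change of 0.00 had a 95% interval of -0.54 to 0.55. Sprr1b, also known as a stress-induced precursor, had values of 6.96, 6.32 and 5.83 in K14ΔNLef1 samples, against 6.20, 6.54 and 5.55 in wild type samples. These overlapped, with a change of 0.27 (limma adjusted p of 0.81). Sprr2f had values of 8.95, 7.71 and 8.33 in K14ΔNLef1 samples, against 8.02, 8.09 and 7.98 in wild type samples. Its K14ΔNLef1 arrays lay on both sides of wild type, with a change of 0.30 (limma adjusted p of 0.751). As a family, the Sprr genes had a mean deviation from their wild type mean of 0.41, -0.232 and 0.057 on K14ΔNLef1 replicates 1, 2 and 3, against -0.077 to 0.134 on the wild type arrays. Over all genes the mean deviation was -0.249, -0.04 and 0.045 on those K14ΔNLef1 replicates, against -0.035 to 0.027 on the wild type arrays. In the dim range were 6 of the 10, and the Sprr2 genes are close copies.

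The 33 members on chromosome 3 held 0 calls (limma), with 2 at an unadjusted p under 0.05, and had a median change of 0.060. The genotypes did not overlap for 8 of them (24.2%), a share close to the 18.7% of all genes. The 15 members elsewhere held the 1 call, against 1.16% of all genes, and 7 of them had an unadjusted p under 0.05, against 11.8%. They had a median change of -0.118, and the genotypes did not overlap for 9 (60.0%), against 18.7% of all genes. Of the chromosome 3 members 17 were in the dim range, against 1 of the others. Chromosome 3 members also had at most 6 probe sets, against up to 20 elsewhere. Position, level and number of probe sets therefore cannot be told apart in this contrast.

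**Figure D4:**
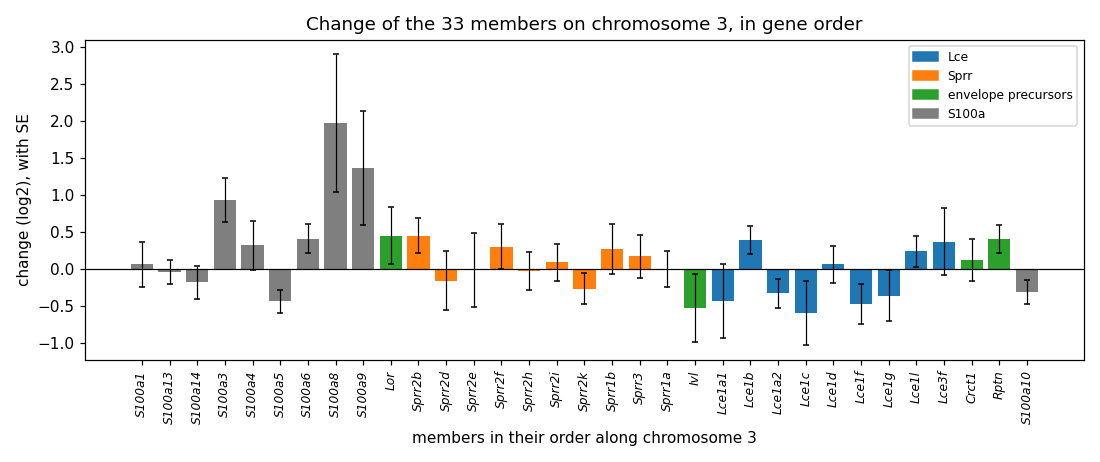
Change of the 33 members on chromosome 3 on the log2 scale, K14ΔNLef1 minus wild type, as bars in gene order with the SE from limma, coloured by role. S100a8 at 1.97, S100a9 at 1.36 and S100a3 at 0.93 stand above the Sprr and Lce genes, which lie between -0.60 and 0.45.

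Of the 3 surface and adhesion genes none passed (limma), and 2 had an unadjusted p under 0.05. Lypd3 encodes a membrane-anchored protein of suprabasal cells and had values of 8.14, 9.19 and 8.74 in K14ΔNLef1 samples, against 9.54, 9.58 and 9.72 in wild type samples. All K14ΔNLef1 arrays were lower, replicate 1 most. The change of Lypd3 was -0.92 (SE 0.27), with a 95% interval of -1.54 to -0.31 and a limma adjusted p of 0.205, and all 7 probe sets were lower. With the median of its probe sets in place of the mean, the change was -0.48 (limma adjusted p of 0.642). Ly6d, a membrane-anchored keratinocyte protein of the same superfamily, had values of 10.16, 10.55 and 10.53 in K14ΔNLef1 samples, against 10.80, 11.08 and 11.06 in wild type samples. It too was lower on every K14ΔNLef1 array and in all 6 probe sets, with a change of -0.57 (SE 0.19, limma adjusted p of 0.286). With the median of probe sets the change of Ly6d was -0.38 (limma adjusted p of 0.547). Cdsn encodes corneodesmosin, which holds corneocytes together, and had values of 7.28, 7.28 and 6.99 in K14ΔNLef1 samples, against 6.97, 6.79 and 7.11 in wild type samples. These overlapped, with a change of 0.23 (limma adjusted p of 0.688).

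Of the 10 S100a genes 6 were higher and 4 lower, and 0 passed (limma), with S100a3 and S100a5 at an unadjusted p under 0.05. The median change was 0.191, and 5 had no overlap, 3 higher and 2 lower, against 18.7% of all genes, 6.91% higher and 11.8% lower. S100a8 and S100a9 encode the subunits of calprotectin, which is abundant in neutrophils and induced in keratinocytes of inflamed skin. S100a8 had values of 5.44, 5.06 and 9.14 in K14ΔNLef1 samples, against 4.49, 4.64 and 4.60 in wild type samples. S100a9 had values of 6.29, 5.03 and 8.44 in K14ΔNLef1 samples, against 4.53, 5.94 and 5.22 in wild type samples. By their mean over all arrays both genes were in the dim range, and S100a8 is among the 5 without overlap. K14ΔNLef1 replicate 3 was the highest array for both genes and for each of their 5 probe sets, while S100a9 overlapped between the genotypes through replicate 2. The change of S100a8 was 1.97 (SE 0.93), with a 95% interval of -0.15 to 4.10 (limma adjusted p of 0.473). The change of S100a9 was 1.36 (SE 0.77), with a 95% interval of -0.41 to 3.13 (limma adjusted p of 0.568). Without K14ΔNLef1 replicate 3 the changes were 0.67 for S100a8 and 0.43 for S100a9. S100a9 passed in 1 of its alternative fits, that with array number as a covariate (change 1.57, limma adjusted p of 0.042), and K14ΔNLef1 replicate 3 was array number 1, at the end of that covariate. With array weights the change of S100a9 was 0.21 (limma adjusted p of 0.872).

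Markers of neutrophils and monocytes were read on the same arrays. Of 15 listed markers 11 were measured, 9 higher and 2 lower, and 0 passed (limma), with 1 at an unadjusted p under 0.05. Their mean deviation from the wild type mean was 0.287, 0.28 and 0.156 on K14ΔNLef1 replicates 1, 2 and 3, against -0.017 to 0.021 on the wild type arrays. K14ΔNLef1 replicate 3, the highest array for S100a8 and S100a9, was the lowest K14ΔNLef1 array for this list, and the part of these cells in the values of S100a8 and S100a9 was not tested. In the dim range were 6 of the 11, among them the granule genes Ltf, Ngp and Mpo. The stress keratins Krt6a, Krt6b, Krt16 and Krt17, which are known to accompany S100a8 and S100a9 in inflamed epidermis, had a mean deviation of -0.139, 0.009 and 0.361 on K14ΔNLef1 replicates 1, 2 and 3, against -0.166 to 0.097 on the wild type arrays. Over all genes the mean deviation was -0.249, -0.04 and 0.045 on the same K14ΔNLef1 replicates. None of the 4 stress keratins passed or had an unadjusted p under 0.05 (limma), and 3 were in the dim range.

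S100a3, known from the cuticle of the hair shaft, had values of 7.02, 7.14 and 8.07 in K14ΔNLef1 samples, against 6.70, 6.54 and 6.19 in wild type samples. It was higher on every K14ΔNLef1 array, again most on replicate 3. The change was 0.93 (SE 0.30), with a 95% interval of 0.25 to 1.62 and a limma adjusted p of 0.256, and all 5 probe sets were higher. Of 13 measured markers of the inner root sheath and hair cuticle 6 were higher and 7 lower, and 1, Gata3, fell, while 0 rose (limma). Over all genes 1.16% were called. Gata3 also acts in the interfollicular epidermis. The mean deviation of this list was -0.106, -0.109 and -0.085 on K14ΔNLef1 replicates 1, 2 and 3, against -0.031 to 0.044 on the wild type arrays, and its part in the values of S100a3 and Tgm3 was not tested.

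S100a6, or calcyclin, was the brightest S100a gene, at 12.35, 12.78 and 12.75 in K14ΔNLef1 samples, against 12.26, 12.18 and 12.21 in wild type samples. It was higher on every K14ΔNLef1 array, replicate 1 by a narrow gap, with a change of 0.41 and a 95% interval of -0.01 to 0.84 (limma adjusted p of 0.447). S100a10, which binds annexin A2, had values of 11.32, 11.40 and 11.49 in K14ΔNLef1 samples, against 11.69, 11.63 and 11.82 in wild type samples. It was lower on every K14ΔNLef1 array, with a change of -0.31 (limma adjusted p of 0.535). S100a5, read by 1 probe set, had values of 7.80, 7.81 and 7.76 in K14ΔNLef1 samples, against 8.18, 8.28 and 8.22 in wild type samples. The genotypes were tightly grouped and apart, with a change of -0.44 and a 95% interval of -0.80 to -0.08 (limma adjusted p of 0.319). Of 10 listed S100 partners and receptors 9 were measured, 5 higher and 4 lower, with a median change of 0.072, and 0 passed (limma), with 1 at an unadjusted p under 0.05.

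S100a4, which fibroblasts and immune cells also express, had values of 9.88, 11.16 and 10.54 in K14ΔNLef1 samples, against 10.51, 9.86 and 10.25 in wild type samples. The genotypes overlapped, with replicate 2 the highest K14ΔNLef1 array and replicate 1 the lowest (change 0.32, limma adjusted p of 0.759). Langerhans cell markers had a mean deviation of 0.13, 1.461 and 0.861 on K14ΔNLef1 replicates 1, 2 and 3, against -0.317 to 0.386 on the wild type arrays. T cell markers had a mean deviation of -0.041, 1.186 and 0.761 on the K14ΔNLef1 replicates, against -0.237 to 0.345 on the wild type arrays. In each of these lists 8 of 9 measured markers were higher, and 0 passed (limma), with 4 Langerhans cell markers and 2 T cell markers at an unadjusted p under 0.05. S100a4 and both lists had the same order of K14ΔNLef1 arrays, and the part of those cells in the S100a4 values was not tested. That order was not particular to them, since melanocyte markers, Tgm3, Tgm5 and S100a1 had it too. S100a1, S100a13 and S100a14 overlapped between the genotypes, with changes of 0.06, -0.04 and -0.18.

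**Figure D5:**
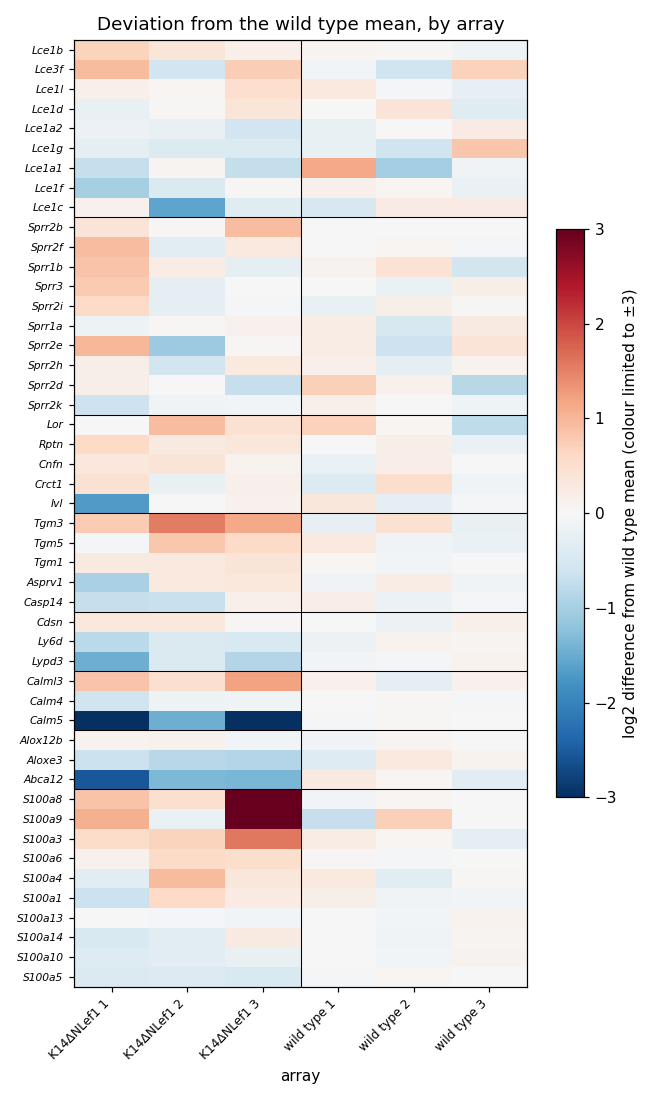
Deviation of each of the 48 members from its wild type mean on the 6 arrays, on the log2 scale with colours limited to 3 either way and lines between role groups. Calm5 and Abca12 are blue on all K14ΔNLef1 arrays, S100a8 and S100a9 are deepest red on K14ΔNLef1 replicate 3, and most Sprr genes are red on K14ΔNLef1 replicate 1.

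Other genes of cornification and the barrier gave calls in both directions. Of 40 listed 28 were measured, 11 higher and 17 lower, of which 1 rose and 1 fell (limma), against 1.16% of all genes called. Their median change was -0.191, against -0.054 over all genes. At an unadjusted p under 0.05 (limma) there were 8, against 11.8% of all genes. The genotypes did not overlap for 9 of them (32.1%), against 18.7% of all genes. Krt2, a keratin of the upper epidermis, had values of 7.12, 8.14 and 7.94 in K14ΔNLef1 samples, against 5.81, 6.09 and 5.94 in wild type samples. Krt2 rose by 1.79 (limma adjusted p of 0.024). That call held in 1 of the 6 fits that left out 1 array (limma adjusted p from 0.00225 to 0.127). Krt77, another suprabasal keratin, had values of 9.28, 10.05 and 9.95 in K14ΔNLef1 samples, against 11.73, 11.79 and 11.67 in wild type samples. Krt77 fell by 1.97 (limma adjusted p of 0.0102), and its call held in 4 of those 6 fits (limma adjusted p from 0.00261 to 0.0664). For both keratins the genotypes were far apart on every array. The mean deviation of this list was -0.549, -0.093 and -0.008 on K14ΔNLef1 replicates 1, 2 and 3, against -0.063 to 0.119 on the wild type arrays. All genes had the same order, at -0.249, -0.04 and 0.045 on those K14ΔNLef1 replicates, so the order is not particular to this list.

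Of 28 listed regulators of epidermal differentiation 23 were measured, 5 higher and 18 lower, and 1 fell while 0 rose (limma), against 1.16% of all genes called. Their median change was -0.191, against -0.054 over all genes. At an unadjusted p under 0.05 (limma) there were 7, against 11.8% of all genes. The genotypes did not overlap for 9 of them (39.1%), against 18.7% of all genes. Gata3, a transcription factor needed for the epidermal barrier in mice, had values of 9.74, 10.17 and 10.17 in K14ΔNLef1 samples, against 11.40, 11.40 and 11.32 in wild type samples. It fell by 1.35 (limma adjusted p of 0.0181), with all K14ΔNLef1 arrays below all wild type arrays. The Gata3 call held in 3 of the 6 fits that left out 1 array (limma adjusted p from 0.0108 to 0.101).

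Of the remaining cell type lists, 0 markers passed (limma). Sebocyte markers had a mean deviation of 0.192, 0.602 and 0.771 on K14ΔNLef1 replicates 1, 2 and 3, against -0.1 to 0.198 on the wild type arrays, with 8 of 12 higher and 5 at an unadjusted p under 0.05. Melanocyte markers had -0.075, 0.464 and 0.342, against -0.091 to 0.093, with 6 of 8 higher and 3 at an unadjusted p under 0.05. Macrophage and dendritic cell markers had 0.142, 0.386 and 0.004, against -0.079 to 0.131, with 8 of 9 higher and 0 at an unadjusted p under 0.05. Fibroblast markers had 0.217, -0.064 and 0.115, against -0.085 to 0.086, with 8 of 10 higher and 3 at an unadjusted p under 0.05. Endothelial and smooth muscle markers had 0.488, -0.033 and 0.316, against -0.12 to 0.142, with 6 of 8 higher and 1 at an unadjusted p under 0.05. The order of the K14ΔNLef1 arrays thus differed between these lists.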

How the data were processed

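RNA of 3 K14ΔNLef1 and 3 wild type samples was read on exon arrays. The authors deposited 1 linear intensity per probe set and array, made with RMA in Affymetrix Power Tools on mm9, per the submitters' processing notes, and no version is given in the sources used. RMA includes background correction and normalization between arrays, and no detection call was used. The log2 of the deposited intensities was averaged over the probe sets of a gene. Of 114330 probe sets, 109751 carry 1 symbol in the platform annotation, 834 several and 3745 none, and 1226 symbols were updated. Tests used lmFit, eBayes and diffSplice of limma 3.58.1 in R 4.3.3, with no covariate, for 11281 genes and for single probe sets, and were tested on simulated data. Python 3.11.15 with pandas 2.3.3 made the summaries.

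The members and lists were chosen with earlier results of these data known, so no list was tested as a whole. Members described in detail are those that passed, those with a change of at least 1 without overlap, the 2 largest changes and 2 brightest genes of each role group, and Ivl, Lor, Tgm1, Tgm3, Casp14, S100a8, S100a9, Sprr1a and Sprr1b; the other members, and markers that did not pass, were named after their values were seen. No pair or covariate is stated in the labels, so the main fit has no block. Alternatives changed the probe set summary, array scaling, filters on dim genes and probe sets, moderation, array weights, blocks, array number and the arrays used.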

Additional observations from a re-analysis of the deposited data

How the results depend on the processing

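Calm5 passed under all 10 alternatives that kept every array (limma adjusted p from 0.0113 to 0.0441), and in 1 of 6 fits with an array left out (0.00191 to 0.166). The number of members that fell was 2, Calm5 and Abca12, with a common array median, quantile normalization, the median of probe sets, dim probe sets left out or the sample number pair as a block. It was 5 with array weights, and 0 to 1 with an array left out, where Abca12 alone passed without K14ΔNLef1 replicate 1. The number of members that rose was 1 with a common array median or quantile normalization (Tgm3), 1 with array number as a covariate (S100a9) and 5 with array weights. Array weights gave K14ΔNLef1 replicate 1 a weight of 0.15 and replicate 2 a weight of 5.18, and called 598 genes higher and 699 lower over all genes, against 37 and 94. Over all genes the calls were 101 higher and 133 lower with a common array median, 89 and 112 with quantile normalization, 34 and 76 with the median of probe sets, 43 and 112 of 10448 genes with dim probe sets left out, 30 and 61 with the pair block, and 28 and 50 with array number. With an array left out they were 115 and 124 without K14ΔNLef1 replicate 1, and 8 to 22 higher and 18 to 55 lower in the other 5 fits. The median change of the members was 0.163 with a common array median, 0.137 with quantile normalization, -0.043 with array weights and -0.017 to 0.098 with an array left out. Member probe sets called were 0, and 0 to 2 with an array left out, both Calm5 without K14ΔNLef1 replicate 2. Over the fits with an array left out, 16 of the 48 members had changes on both sides of 0, among them Lce1a1 (-0.94 to 0.14) and Lce1g (-0.66 to 0.05). Asprv1 was at 0.00 with quantile normalization, 0.28 with array weights and -0.34 to 0.31 with an array left out. Crct1 was at -0.16 with the median of probe sets, -0.15 with array weights and -0.08 to 0.39 with an array left out. Sprr1a was at -0.01 with array number and -0.24 to 0.13 with an array left out, Sprr1b at -0.23 with dim probe sets left out and -0.02 to 0.54, Sprr2f at -0.23 with array weights and -0.01 to 0.61, and Ivl at -0.86 to 0.06. The causes were not tested. With the replicate number as a block, 1 member fell, Calm5 (limma adjusted p of 0.0409), 0 rose and the median change stayed at 0.055, while calls over all genes were 26 higher and 49 lower. Samples with the same number had correlations of -0.163, -0.173 and 0.036 in their deviations from the genotype mean. With 3 arrays per genotype, these values cannot show whether the numbers pair the samples.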
